A study of Mus musculus with 16 samples.

Results

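Broad H3K4me3 regions are stretches of at least 3000 bp that carry trimethylated lysine 4 of histone H3, and they are described here across 6 groups of mouse hippocampus. A region was taken as broad when its end minus its start reached 3000 bp in the deposited list, after repeated rows were dropped. This gave 396 of 35996 regions, with a median width of 3278 bp and a range of 3001 to 5340 bp. They were set against the 14426 regions of 1000 to 2000 bp, called mid-width below. H3K4me3 was profiled by chromatin immunoprecipitation and sequencing (ChIP-seq) in adult male mice of 2 to 4 months, and each library came from the pooled hippocampi of 2 mice. WT mice and their Kdm5c KO littermates, on a mixed F1 background of C57 and 129, were taken under standard conditions or after 1 h in a box with tubing and toys, called novelty here. The mutant line that the labels name ifKO and its littermate controls, written ifWT here, were on a pure C57BL/6J background and were taken under standard conditions. There were 2 libraries in each of the 6 groups. The making of either mutation, and the cells in which the ifKO line lacks the gene, are not given in the sources used here. Whole hippocampus was used, so a change in the share of cells that carry the mark and a change in the mark per cell cannot be told apart.

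H3K4me3 is placed around the start sites of active genes by the KMT2 and SET1 methyltransferase complexes and is removed by demethylases of the KDM5 family. Kdm5c, the X-linked gene for one of these demethylases, is mutated in a form of intellectual disability in humans. Most marked start sites carry a narrow domain that covers the first nucleosomes of the gene. A minority carry a broad domain that runs into the gene body, and such domains are known to be common at genes that define the identity of a cell type.

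Start sites in broad regions differed widely in CpG content, and 6 of them are shown to make this visible. Each is the 250 bases before an annotated RefSeq start (GRCm38.p6), 5′ to 3′ on the strand of the gene, with every CpG dinucleotide in capitals. Arpp21 chr9:112233723-112233972 (minus strand) and Nrp2 chr1:62703067-62703316 (plus strand) lie in 2 of the 3 widest regions. Gng7 chr10:81001366-81001615 (minus strand) and Slc7a11 chr3:50443614-50443863 (minus strand) lie in regions that rose in KO mice. Gprc5b chr7:118995212-118995461 (minus strand) and Foxo1 chr3:52268087-52268336 (plus strand) lie in regions that fell.
Arpp21: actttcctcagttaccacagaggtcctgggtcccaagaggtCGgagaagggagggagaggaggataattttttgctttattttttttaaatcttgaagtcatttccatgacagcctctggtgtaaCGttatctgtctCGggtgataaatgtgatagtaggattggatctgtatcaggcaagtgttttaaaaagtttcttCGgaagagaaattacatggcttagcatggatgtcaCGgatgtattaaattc
Nrp2: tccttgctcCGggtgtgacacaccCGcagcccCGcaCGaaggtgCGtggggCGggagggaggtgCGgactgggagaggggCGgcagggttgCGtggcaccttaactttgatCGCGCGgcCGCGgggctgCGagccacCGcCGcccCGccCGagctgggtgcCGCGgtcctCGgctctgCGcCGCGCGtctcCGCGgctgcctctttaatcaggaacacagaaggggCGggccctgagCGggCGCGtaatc
Gng7: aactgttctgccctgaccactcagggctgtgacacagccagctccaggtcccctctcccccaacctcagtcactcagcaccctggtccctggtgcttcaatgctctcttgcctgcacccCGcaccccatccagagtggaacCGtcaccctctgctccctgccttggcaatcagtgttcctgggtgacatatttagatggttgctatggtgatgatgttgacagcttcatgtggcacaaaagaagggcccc
Slc7a11: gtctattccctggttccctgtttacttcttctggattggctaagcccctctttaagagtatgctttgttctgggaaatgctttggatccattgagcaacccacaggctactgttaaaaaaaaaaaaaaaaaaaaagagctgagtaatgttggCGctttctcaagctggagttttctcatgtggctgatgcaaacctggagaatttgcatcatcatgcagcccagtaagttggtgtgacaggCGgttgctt
Gprc5b: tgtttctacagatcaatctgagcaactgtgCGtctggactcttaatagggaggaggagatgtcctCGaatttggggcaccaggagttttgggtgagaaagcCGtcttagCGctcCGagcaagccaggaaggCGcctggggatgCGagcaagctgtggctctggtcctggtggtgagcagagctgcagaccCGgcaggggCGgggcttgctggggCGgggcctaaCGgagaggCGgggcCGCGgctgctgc
Foxo1: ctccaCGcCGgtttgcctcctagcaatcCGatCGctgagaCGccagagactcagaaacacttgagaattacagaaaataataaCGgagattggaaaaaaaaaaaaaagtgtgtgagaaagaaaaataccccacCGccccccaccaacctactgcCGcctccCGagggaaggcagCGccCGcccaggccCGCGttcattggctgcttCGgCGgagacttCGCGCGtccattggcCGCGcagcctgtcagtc

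The printed stretch held 2 CpGs before Gng7, 2 before Slc7a11 and 5 before Arpp21. It held 14 before Gprc5b, 20 before Foxo1 and 32 before Nrp2. Over the whole table, promoter windows of 300 bases (250 before the start and 50 after it) were available for 376 starts of 317 genes in 260 broad regions. These windows had a median of 21 CpGs, against 20 in the 9969 windows in mid-width regions and 7 in all 32851 windows. The GC box, searched as GGGCGG on both strands, was in 60.9% of the windows in broad regions, 63.9% of those in mid-width regions and 35.7% of all windows. The E-box CACGTG was in 12.2%, 10.7% and 7.15%, and the cyclic AMP response element TGACGTCA in 3.19%, 3.20% and 1.79%. The TATA motif TATAAA was in 6.91%, 6.35% and 13.6%. The palindromic core of the NRF1 motif was in 1 of the 376 windows (0.266%) and in 2.28% of the mid-width windows, and TTTCGCGC was in 0.532% and 0.702%. A match is a match of letters in this window and no measure of binding.

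Counts over all regions totalled 18181192 to 30435735 per library, and broad regions took 5.32% to 6.14% of them. H3K4me3 near an end of Kdm5c itself (chrX:152232907-152234889), which does not report on a deletion inside the gene, was 66.6 and 72.2 CPM (counts scaled by the TMM-adjusted library total) in the WT libraries under standard conditions and 60.8 and 60.3 in KO. Gene ends of pyramidal and granule neuron markers carried a median of 76.5 to 90.7 CPM in the 6 groups, those of microglia markers 4.21 to 5.03 CPM, and 7 of 24 markers of other tissues had any region. A region between genes on chromosome 14 (chr14:19415634-19419653, nearest gene Gm9637) stood apart from every other broad region. It had 2880 to 4413 CPM in the 8 libraries of the KO cohort and 8306 to 15249 CPM in the 4 libraries of the ifKO cohort. Its counts were 0.398 to 0.408 times those of a region on chromosome 2 (chr2:98666198-98667456) in all 12 libraries. The placing of reads from repeated sequence was not given in the sources used here. Without the chromosome 14 region, broad regions took 4.97% to 5.33% of the scaled counts in the KO cohort and 4.60% to 4.70% in the ifKO cohort.

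Broad regions lay mostly at genes and ran downstream from their start sites. Of the 396, 328 (82.8%, exact binomial 95% interval 78.7% to 86.4%) lay within 2 kb of an end of a gene, 66 lay inside a gene away from its ends and 2 lay between genes. Among mid-width regions 72.9% were at gene ends and 8.19% were between genes. A start site from the promoter table was found in 260 broad regions (65.7%) and in 54.2% of mid-width regions. Starts on both strands were present in 52 of these 260 and in 12.9% of the mid-width regions with a start. A protein-coding gene ended or began within 2 kb of 73.7% of broad and 64.2% of mid-width regions. On the X chromosome were 7 broad regions (1.77%), against 3.22% of mid-width and 2.67% of all regions.

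Most of the extra width lay on the gene side. Among the 208 broad regions with starts on 1 strand only, the region reached a median of 2747 bp downstream of the first start and 583 bp upstream. In 6808 such mid-width regions these distances were 1016 bp and 476 bp. The downstream part was the longer one in 88.9% of broad and 88.2% of mid-width regions. The median gap from a broad region to the nearest other region was 14339 bp, and 55 of 396 (13.9%) had another region within 1 kb, against 14.4% of mid-width regions.

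**Figure D1:**
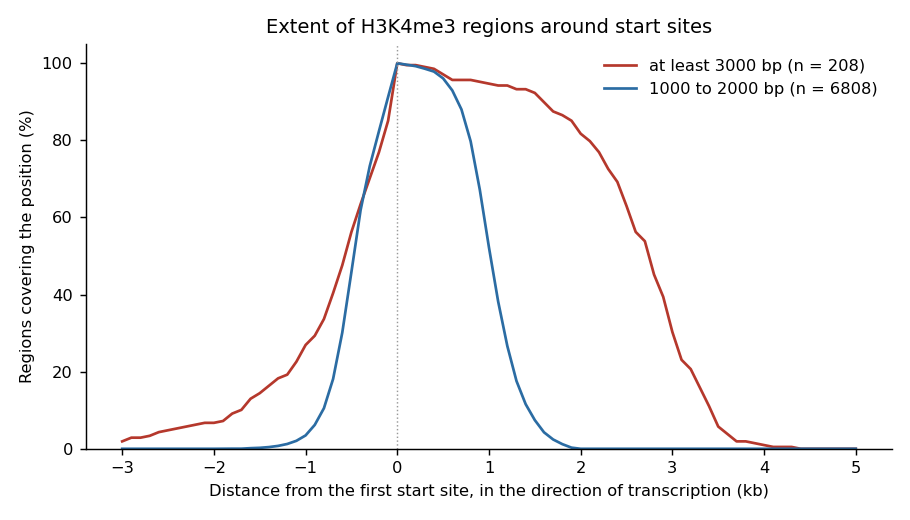
Share of regions (%) that cover each position, by distance from the first start site in kb along the direction of transcription, for 208 broad (red) and 6808 mid-width (blue) regions with starts on 1 strand. Upstream the red curve lies above the blue one from -400 bp outward (47.6% against 30.1% at -600 bp and 26.9% against 3.47% at -1000 bp), and downstream the blue curve falls around 1 kb while the red curve falls between 2 and 3.5 kb.

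The 8 widest regions all lay at or inside genes. The widest, 5340 bp, was at the end of Arpp21 (chr9:112230695-112236035), which encodes a cyclic AMP-regulated phosphoprotein of forebrain neurons. Lrrtm2, the gene for a postsynaptic adhesion protein, followed with 5181 bp, Nrp2, a semaphorin co-receptor gene, with 4827 bp and Khdrbs3, a splicing factor gene, with 4796 bp. Hey1, a Notch target gene, had 4494 bp, and the region inside Tspoap1, which encodes a presynaptic RIM-binding protein, had 4336 bp. Ptprg, a receptor tyrosine phosphatase gene, also had 4336 bp, and Tafa1, the gene for a small secreted protein, had 4258 bp. Their mean levels over the 12 libraries were 139 to 264 CPM. None of the 8 was called in KO against WT averaged over both conditions, with log2 changes from -0.10 to 0.083. Nrp2 was called lower without WT novelty library 1 (edgeR adjusted p 0.0056), ifKO library 1 (0.046) or ifKO library 2 (0.048), and with DESeq2 (0.028), limma-voom (0.018), RLE size factors (0.032) or the KO cohort fitted alone (0.039). Lrrtm2 (0.015) and Khdrbs3 (0.035) were called higher without KO standard library 2, and with library totals (0.021 and 0.0064). With offsets fitted to the strength of a region these (0.0011 and 8.3e-05) and Arpp21 (0.0049) were called higher. Khdrbs3 was also called higher with limma-voom (0.036) and with the KO cohort fitted alone (0.045). Just inside the threshold, at 3001 bp each, were regions at Apcdd1 (99.02 CPM) and LOC115489723 (46.9 CPM). Just outside it, at 2999 bp each, were regions at Alkbh5 (154 CPM) and Chd9 (105 CPM).

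Broad regions were stronger than mid-width regions over their whole length and per kilobase. The median level was 124 CPM in broad and 33.5 CPM in mid-width regions, and per kilobase it was 36.9 and 23.4 CPM. A mean of at least 6 on the log2 CPM scale was reached by 359 broad regions (90.7%) and by 23.1% of mid-width regions. The region on chromosome 14 had 1497 CPM per kb, followed by Malat1 (85.4), an abundant nuclear noncoding RNA, Gm7854 (78.9) and Arrdc3 (76.7), an arrestin domain gene. At the other end were a region shared by Gm10222 and Gm10925 (4.09 CPM per kb), the region inside Zfhx2 (4.76), Dlx2 (4.84), a homeobox gene of interneurons, and Slc39a10 (6.07), a zinc transporter gene. The Gm10222 and Gm10925 region varied most between the 2 libraries of a group, with 8.94 and 26.8 CPM in WT under standard conditions and 20.7 and 6.97 CPM in ifWT. Between the 2 libraries of a group, broad regions differed by a median of 0.043 to 0.080 on the log2 scale and mid-width regions by 0.069 to 0.11.

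The median broad region stood above the median mid-width region by a similar amount in every group. On the log2 CPM scale this distance was 1.88 and 1.94 in the WT and 1.92 and 1.86 in the KO libraries under standard conditions, 1.84 and 1.93 in WT and 1.90 and 1.87 in KO after novelty, 1.80 and 1.80 in ifWT and 1.85 and 1.79 in ifKO. The values of KO and WT overlapped in the KO cohort, as did those of ifKO and ifWT. In the ifKO cohort 3 of the 4 libraries, all but ifKO library 1, lay below every library of the KO cohort. Line, background and cohort cannot be told apart in that difference.

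Pyramidal and granule neuron genes had the largest share of genes with a broad region among the 16 lists. Of 37 pyramidal and granule neuron genes with a gene-end region, 9 (24.3%) had a broad one, against 338 of 14879 protein-coding genes (2.27%). The 9 were Bhlhe22, Camk2a, Camk2b, Etv1, Fezf2, Neurod1, Neurod2, Nrgn and Tbr1, of which Bhlhe22, Etv1, Fezf2, Neurod1, Neurod2 and Tbr1 encode transcription factors, Camk2a and Camk2b the subunits of a synaptic kinase, and Nrgn a calmodulin-binding postsynaptic protein. Tcf4, a further transcription factor gene of this list, had 2 broad regions inside it. Synaptic transmission genes had 7 of 49 (Gabbr2, Gabra2, Grin2b, Lrrtm2, Nlgn1, Slitrk1 and Snap25) and ion channel genes 5 of 32 (among them Kcna1, Kcnj6, Kcnk1 and Kcnma1). Astrocyte genes had 3 of 18 (Apoe, Fgfr3 and Slc1a2) and endothelial and mural genes 3 of 23 (among them Cldn5 and Fli1). These are counts with no test, the lists overlap in part, and a few genes decide each share.

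The other lists held 0 to 3 genes with a broad region. None of 50 ribosomal protein genes, 20 microglia genes, 19 germline and meiosis genes or 21 striatal, thalamic and hindbrain genes with a gene-end region had a broad one, and in lists of this size a count of 0 is near the 2.27% of all protein-coding genes. The strongest gene-end region had a median width of 1724 bp at ribosomal protein genes, 1071 bp at germline and meiosis genes and 2118 bp at pyramidal and granule neuron genes. Activity-induced genes had 3 of 38 (Arc, Dusp4 and Dusp6), interneuron genes 2 of 26 (Cck and Dlx2), developmental transcription factors 2 of 23 (Tbx3 and Zic2) and oligodendrocyte lineage genes 1 of 18 (Sox8), shares above 2.27% that rest on 1 to 3 genes each. Chromatin and intellectual disability genes had 2 of 52 (Chd2 and Iqsec2), and of 24 H3K4 methylation enzymes Hcfc1, which encodes a cofactor of methyltransferase complexes, had one.

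**Figure D2:**
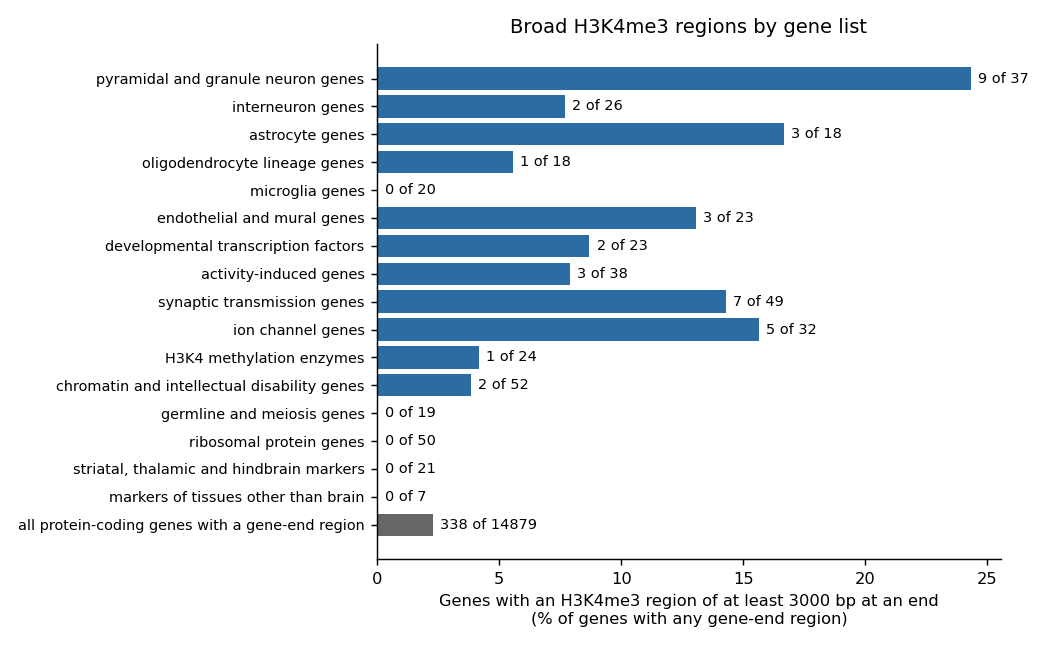
Share of genes (%) with a broad H3K4me3 region within 2 kb of a gene end, among genes of each list with any gene-end region (bars, with counts at right), and among all protein-coding genes (grey). Pyramidal and granule neuron genes have the longest bar at 24.3%, against 2.27% for all protein-coding genes, and 5 lists are at 0.

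In KO against WT averaged over both conditions, the strongest changes at broad regions were rises at weakly marked sites, and the falls were small. A region was called when its edgeR adjusted p (Benjamini-Hochberg over all 35955 tested regions) was under 0.05. Of the 396 broad regions 64 rose and 69 fell (33.6%), whereas 32.1% of all tested regions (18.1% higher and 13.9% lower) and 43.8% of mid-width regions were called. The median log2 change was -0.019 in broad, -0.036 in mid-width and 0.0087 in all tested regions. Of the 133 called, 9 changed by at least 0.5 on the log2 scale, all of them upward, and 100 by less than 0.25. The split into rises and falls depended on the scaling: it was 61 and 87 with RLE size factors, 106 and 33 with library totals, 166 and 9 with offsets fitted to the strength of a region, 56 and 87 with DESeq2, and 73 and 89 with limma-voom.

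The largest rise was inside Zfhx2 (chr14:55062832-55065899), a gene for a zinc finger homeobox transcription factor. This region had 5.44 and 5.76 CPM in WT and 27.4 and 28.4 CPM in KO under standard conditions, and 6.96 and 6.85 CPM in WT and 28.8 and 30.5 CPM in KO after novelty. The KO libraries were all above the WT libraries, and the log2 change was 2.21 ± 0.094 (SE, edgeR adjusted p 2.2e-18). The region inside Gng7 (chr10:80999782-81003021), which encodes a G protein gamma subunit abundant in striatum and which holds the CpG-poor start printed above, had 13.2 and 13.9 CPM in WT and 46.5 and 40.6 CPM in KO under standard conditions, and 12.5 and 11.8 CPM and 37.3 and 33.6 CPM after novelty. Its log2 change was 1.62 ± 0.070 (adjusted p 3.2e-18), again with no overlap. At the end of Gm41635 (chr17:83545579-83548671), a predicted gene, 11.1 and 10.2 CPM in WT compared with 29.3 and 28.4 CPM in KO under standard conditions and 10.1 and 11.1 CPM with 26.4 and 28.9 CPM after novelty, a log2 change of 1.41 ± 0.078 (adjusted p 1.4e-15). These 3 of 396 were the broad regions called with a rise of at least 2-fold, and none fell that far. Among the 14426 mid-width regions 546 were called with such a rise and 3 with such a fall. Over all 35955 tested regions it was 1693 and 33, so large changes were mostly rises there too.

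Trim71, which encodes an RNA-binding protein of stem cells, rose from a stronger start (chr9:114561300-114564313). It had 39.98 and 41.3 CPM in WT and 84.6 and 85.8 CPM in KO under standard conditions, and 45.4 and 44.4 CPM and 83.6 and 71.8 CPM after novelty, a log2 change of 0.93 ± 0.053 (adjusted p 3.5e-15). A region on chromosome 16 with no gene within 50 kb (chr16:77236429-77239899) had 41.7 and 43.2 CPM in WT and 78.02 and 68.8 CPM in KO under standard conditions and changed by 0.84 ± 0.048 (adjusted p 3.3e-15). The region at 4922502B01Rik (chr8:109248222-109251631) changed by 0.68 ± 0.060 (adjusted p 1e-10). Inside Slc7a11 (chr3:50440765-50444209), the gene for the cystine and glutamate antiporter, 30.3 and 26.7 CPM in WT compared with 44.5 and 40.6 CPM in KO under standard conditions, and 27.2 and 22.96 CPM with 34.2 and 43.5 CPM after novelty. The KO libraries were above the WT libraries at this region too, by 0.60 ± 0.071 on the log2 scale (adjusted p 5.9e-08). Lefty1, which encodes an antagonist of TGF-beta family signals, and Asic2, an acid-sensing channel gene, both changed by 0.52 (adjusted p 4.8e-07 and 8.9e-10).

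**Figure D3:**
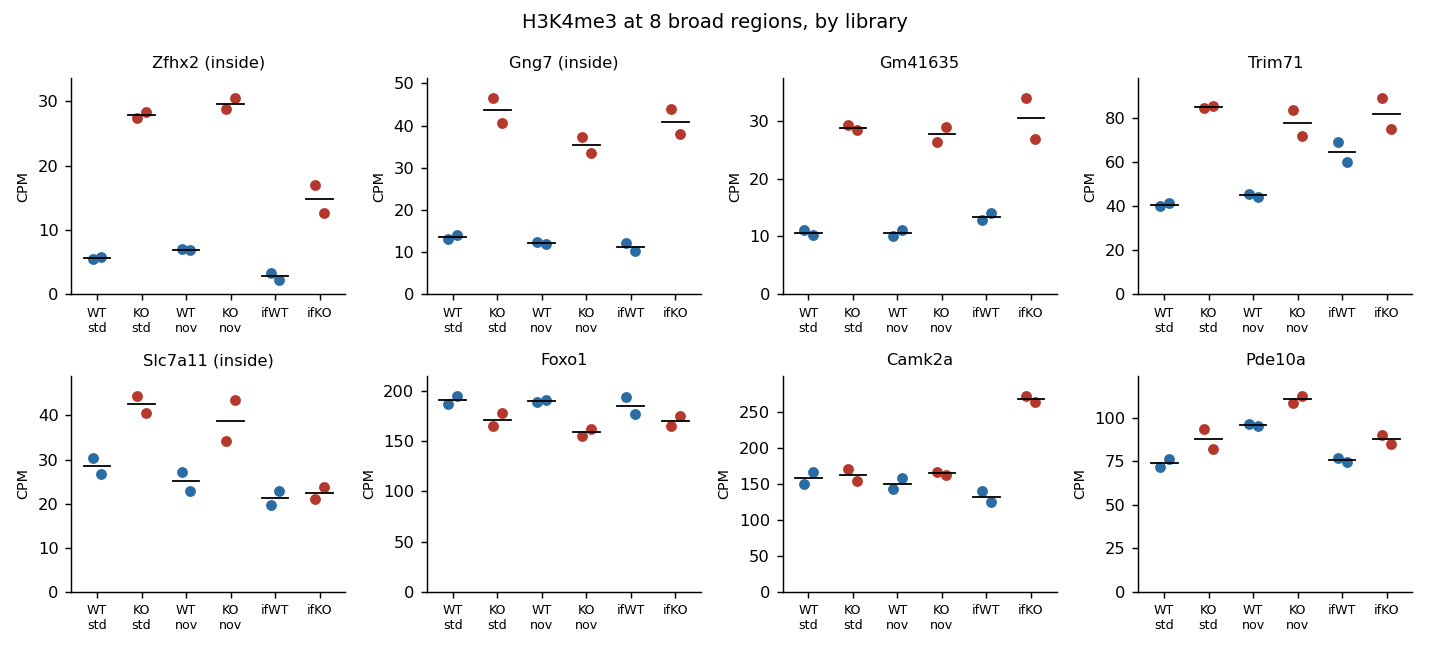
H3K4me3 in CPM (vertical axis, from 0) at 8 broad regions in each of the 12 libraries (points, control blue and mutant red) with the mean of each group (line). At Zfhx2, Gng7 and Gm41635 all mutant libraries lie above all controls in both lines, Camk2a is at 263 to 272 CPM in ifKO and below 170 CPM elsewhere, and the Foxo1 libraries lie within 155 to 195 CPM.

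The falls reached at most -0.23 on the log2 scale among regions assigned to a gene end. Gprc5b (chr7:118992748-118995756), an orphan receptor gene, had 99.8 and 112 CPM in WT and 91.8 and 88.7 CPM in KO under standard conditions, and 97.7 and 106 CPM and 85.2 and 87.9 CPM after novelty, a change of -0.23 ± 0.045 (adjusted p 0.00018). Apcdd1, a Wnt inhibitor gene, had 113 and 115 CPM in WT and 97.7 and 98.02 CPM in KO under standard conditions and changed by -0.23 ± 0.039 (adjusted p 2.6e-05). Foxo1 (chr3:52267526-52270835), a forkhead transcription factor gene of the insulin pathway, had 187 and 195 CPM in WT and 165 and 178 CPM in KO under standard conditions, and 189 and 191 CPM and 155 and 162 CPM after novelty, a change of -0.21 ± 0.039 (adjusted p 0.00013). In each of these 3 regions the KO libraries lay below the WT libraries of the same condition. Fli1, an ETS factor gene of endothelial and blood cells, changed by -0.20 ± 0.050 (adjusted p 0.0026), and the shared start of Fbxl12 and Ubl5, genes for an F-box and a ubiquitin-like protein, by -0.19 ± 0.042 (adjusted p 0.00078). The end of Tbx3 and its antisense partner Tbx3os1, whose reads cannot be told apart, changed by -0.21 ± 0.055 (adjusted p 0.0036), and this call was lost without KO novelty library 1 (adjusted p 0.068). With offsets fitted to region strength the Fbxl12 and Ubl5 call was lost (adjusted p 0.077). The chromosome 14 region was called lower (-0.30 ± 0.10, adjusted p 0.021). It lost the call with DESeq2 (adjusted p 0.28), limma-voom (0.61) or strength offsets (-0.18, 0.30) and without WT standard library 2 (adjusted p 0.21), KO standard library 1 (0.050), WT novelty library 2 (0.15) or KO novelty library 1 (0.13). Without it and the Gm10222 and Gm10925 region the counts were 64 rises and 68 falls.

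Among regions of middle strength a larger share of broad than of mid-width regions rose. Among the strongest regions few of either class rose, and a smaller share of the broad ones fell. In both width classes the median log2 change in KO fell from weakly to strongly marked regions. With a mean log2 CPM of 6 to 7, 46 of 177 broad regions rose and 19 fell (median log2 change 0.013), whereas 80 of 3294 mid-width regions rose and 1713 fell (median -0.11). At 20 to 30 CPM per kb, 32 of 81 broad regions rose and 5 fell (median 0.063), and 326 of 1865 mid-width regions rose and 323 fell (median -0.025). At 40 to 50 CPM per kb the share that rose was 2.27% of broad and 2.54% of mid-width regions. Above 50 CPM per kb, 0 of 75 broad regions rose and 30 fell, against 25 and 891 of 1369. With a mean log2 CPM above 7, 3 of 182 broad (1.65%) and 2 of 38 mid-width regions (5.26%) rose. In that band 46 broad (25.3%) and 23 mid-width regions (60.5%) fell, with median log2 changes of -0.041 and -0.13. The 14 broad regions under 10 CPM per kb, with 7 rises and 1 fall, had a median of 0.21, close to the 0.22 of mid-width regions of that density. These counts carry no test of the width classes against each other.

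Library by library, the width classes were farther apart in every KO than in every WT library in 1 of the 2 bands of strength compared. Among regions with a mean log2 CPM of 6 to 7, the broad median lay above the mid-width median by 0.350 and 0.340 (log2 CPM) in WT and by 0.474 and 0.440 in KO under standard conditions. After novelty the distance was 0.317 and 0.320 in WT and 0.475 and 0.481 in KO, and it was 0.235 and 0.195 in ifWT and 0.388 and 0.267 in ifKO. Every KO library was above every WT library, and both ifKO libraries were above both ifWT libraries. At 20 to 30 CPM per kb the groups overlapped in the KO cohort, with distances of 1.24 and 1.298 in WT and 1.33 and 1.27 in KO under standard conditions and of 1.18 and 1.28 in WT and 1.32 and 1.32 in KO after novelty. KO standard library 2 lay below WT standard library 2 and WT novelty library 2 there. In ifWT the distance in this band was 1.14 and 1.12, and in ifKO 1.25 and 1.17, with no overlap. Within the band of log2 CPM 6 to 7 broad regions were the stronger ones in every library, and they hold fewer counts per kilobase than mid-width regions of the same level. The way the region borders were set, and the libraries used for it, are not given in the sources used here, and the part of that choice in these differences was not tested.

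**Figure D4:**
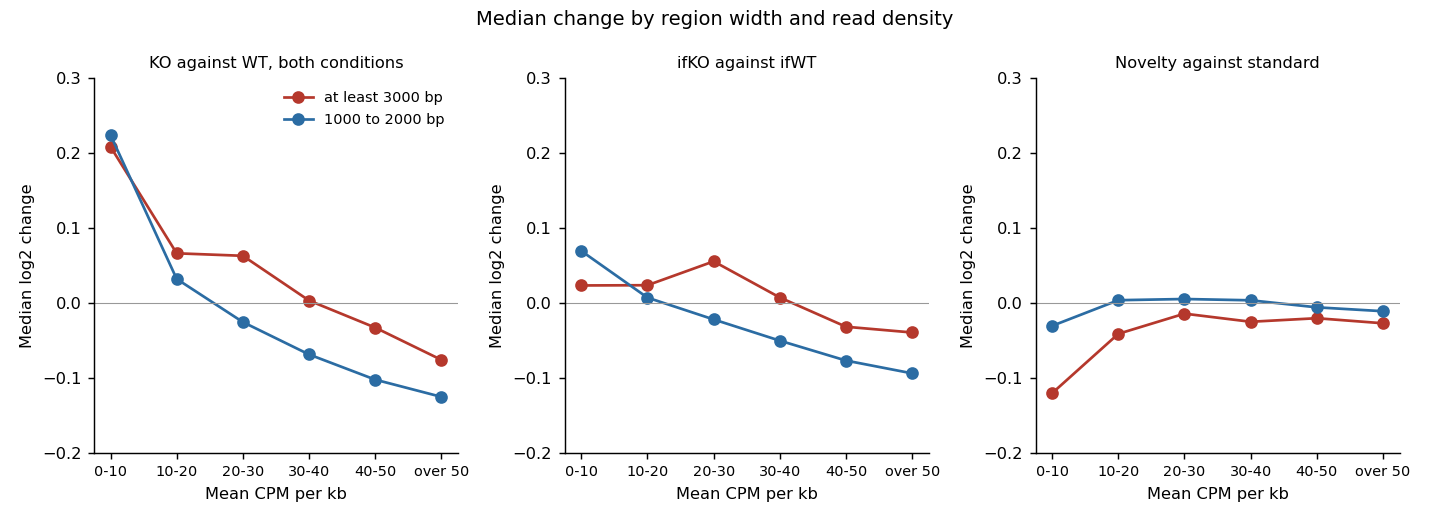
Median log2 change (vertical axis) of broad (red) and mid-width (blue) regions by mean CPM per kb (horizontal axis, 6 classes), for KO against WT, ifKO against ifWT and novelty against standard conditions. In the 2 mutant comparisons the blue curve falls to the right and the red curve lies above it from 10 CPM per kb on, and in the novelty comparison the red curve is the lower one at every density.

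Regions that rose lay inside genes in a larger share, and had fewer CpGs at their starts, than regions that fell, as counts with no test. Of the 64 rises 18 (28.1%) were inside genes, of the 69 falls 5 (7.25%), and of the 263 regions not called 43 (16.3%). Among broad regions inside genes 18 of 66 rose and 5 fell, and among those at gene ends 45 of 328 rose and 63 fell. Mid-width regions split in the same way, with 948 of 2722 higher and 243 lower inside genes and 1525 of 10523 higher and 3014 lower at gene ends. The rises had a median of 26.5 CPM per kb, the falls 49.2 and the rest 38.2. The 58 promoter windows in regions that rose had a median of 10.5 CpGs, the 72 in regions that fell 28.5 and the 246 in the rest 21. Windows in 1 region share their sequence in part, and CpG content and density moved together, so their parts in the result were not tested.

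Under standard conditions 40 broad regions rose and 18 fell in KO (14.6%), against 13.4% of all tested regions (9.74% higher and 3.67% lower). The split was 36 and 26 with RLE size factors, 60 and 5 with library totals, 82 and 1 with strength offsets, 33 and 35 with DESeq2 and 42 and 38 with limma-voom. The 58 calls became 30 without WT standard library 1, 26 without WT standard library 2 and 27 without KO standard library 1. After novelty 59 rose and 21 fell (20.2%), against 17% of all tested regions (11.1% higher and 5.94% lower), and the 80 calls became 46 without KO novelty library 1. There the split was 53 and 38 with RLE size factors, 85 and 8 with library totals, 137 and 3 with strength offsets, 49 and 40 with DESeq2 and 68 and 49 with limma-voom. The 2 comparisons share no libraries. Over the 396 regions their log2 changes correlated with Pearson's r of 0.926 and Spearman's rho of 0.762, as a description across regions that share libraries. Of the rises, 38 were called in both conditions, which is 95% of the 40 under standard conditions and 64.4% of the 59 after novelty. Over all tested regions these shares were 74.7% and 65.7%, and over mid-width regions 80.1% and 73.9%. Of the falls 8 were called in both (44.4% and 38.1%, against 41.6% and 25.7% over all tested regions), and no region was called in opposite directions.

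Zfhx2, Gng7 and Gm41635 led the rises in each condition, with log2 changes of 2.32 ± 0.14, 1.69 ± 0.10 and 1.44 ± 0.11 (SE) under standard conditions and 2.1004 ± 0.13, 1.55 ± 0.10 and 1.38 ± 0.11 after novelty. Gprc5b (-0.23, adjusted p 0.014) and Apcdd1 (-0.22, adjusted p 0.0059) fell most among genes under standard conditions. The Gprc5b call was lost without WT standard library 2 (adjusted p 0.32) or KO standard library 2 (0.10) and with strength offsets (0.097), and the Apcdd1 call without WT standard library 2 (0.078). After novelty Foxo1 (-0.26, adjusted p 0.0011), Apcdd1 (-0.24, 0.0021) and Fli1 (-0.24, 0.016) fell most. The Apcdd1 call was lost without KO novelty library 1 (0.10), and the Fli1 call without that library (0.30) or WT novelty library 1 (0.085) or 2 (0.077), and with library totals (0.056) or strength offsets (0.071). The chromosome 14 region fell under standard conditions (-0.42, adjusted p 0.041), a call lost without WT standard library 2 (0.55), KO standard library 1 (0.16) or KO standard library 2 (0.12), and with DESeq2 (0.36), limma-voom (0.76), strength offsets (0.26) or library totals (0.068). Neat1, the noncoding RNA gene of paraspeckles, rose in both, by 0.33 and 0.53 (adjusted p 0.00026 and 1.4e-07).

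The ifKO line showed fewer calls than the KO line, with 34 broad regions against 58 in KO under standard conditions. Each of these 2 comparisons sets 2 libraries against 2. The KO comparison averaged over both conditions, used for the shared calls below, rests on 8 libraries. The part of that difference in the shares of shared calls was not tested. In ifKO against ifWT 30 broad regions rose and 4 fell (8.59%), against 5.38% of all tested regions (4.41% higher and 0.976% lower) and 7.95% of mid-width regions, with a median log2 change of -0.010. The split was 59 and 0 with strength offsets, 23 and 9 with DESeq2 and 22 and 10 with limma-voom. The 34 calls became 10 without ifKO library 1 and 21 without ifWT library 1. Of the 30 rises 27 (90.0%) were also rises in KO against WT averaged over both conditions, a comparison that shares no library with this one, and they made up 42.2% of the 64 rises there. Over all tested regions 92.1% of the ifKO rises, and over mid-width regions 94.3%, were also rises in KO, so the 90.0% of broad regions is near the share of all regions. Over the 396 regions the log2 changes of the 2 lines correlated with r of 0.828 and rho of 0.576, and with r of 0.626 without the 4 regions of the largest change in KO. Of the 64 rises in KO 56 had a positive value in ifKO, and of the 69 falls 58 had a negative one. Over all tested regions these counts were 5254 of 6519 rises and 4509 of 5009 falls. Of the falls 1 was called in both lines, which is 1.45% of those in KO and 25% of those in ifKO. Over all tested regions these shares were 4.11% and 58.7%, and over mid-width regions 4.60% and 65.1%. At a mean log2 CPM of 6 to 7 the median change was 0.021 in 177 broad and -0.081 in 3294 mid-width regions.

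The 3 leading regions of the KO line also led in ifKO. The region inside Zfhx2 had 3.33 and 2.23 CPM in ifWT and 16.97 and 12.6 CPM in ifKO, a log2 change of 2.42 ± 0.17 (SE, adjusted p 2.4e-12). Inside Gng7 the values were 12.00 and 10.3 CPM and 43.9 and 37.96 CPM, a change of 1.88 ± 0.11 (adjusted p 2.5e-14), and at Gm41635 12.8 and 14.02 CPM and 33.99 and 26.95 CPM, a change of 1.18 ± 0.11 (adjusted p 2.4e-09). In all 3 both ifKO libraries were above both ifWT libraries. The chromosome 16 region without a gene changed by 0.75 (adjusted p 3.3e-09). The 3 rises called in ifKO and not in KO were Camk2a, a region inside Frmd4a (0.22, adjusted p 0.026) and one at AY036118 and Rn18s-rs5 (0.42, 0.028), which RefSeq names after ribosomal RNA sequence. The falls were Xkr4 (-0.21, 0.02), Fbxl12 and Ubl5 (-0.21, 0.035), Ext1, a heparan sulfate synthesis gene (-0.20, 0.043), and Mtcl1, a microtubule protein gene (-0.18, 0.039). The call for Xkr4 was lost without ifWT library 1 (adjusted p 0.32) or ifKO library 1 (0.16), and that for Ext1 without these libraries (0.30 and 0.64) or, at 0.059 to 0.060, without WT standard library 1 or 2 or KO novelty library 1 or 2. That for Fbxl12 and Ubl5 was lost without ifKO library 1 (0.68), ifWT library 1 (0.10) or 2 (0.11) or, at 0.051 to 0.052, without WT standard library 1 or 2 or KO novelty library 1 or 2. With strength offsets or with the 4 libraries of the ifKO cohort fitted alone, the calls for all 3 of these were lost (adjusted p 0.060 to 0.20). With strength offsets no broad region was called lower, so the Mtcl1 call was lost as well. Mtcl1 was not followed through the other alternatives. The chromosome 14 region was not called (0.32, adjusted p 0.21), but was higher without ifWT library 2 (0.033) or ifKO library 2 (0.00041).

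**Figure D5:**
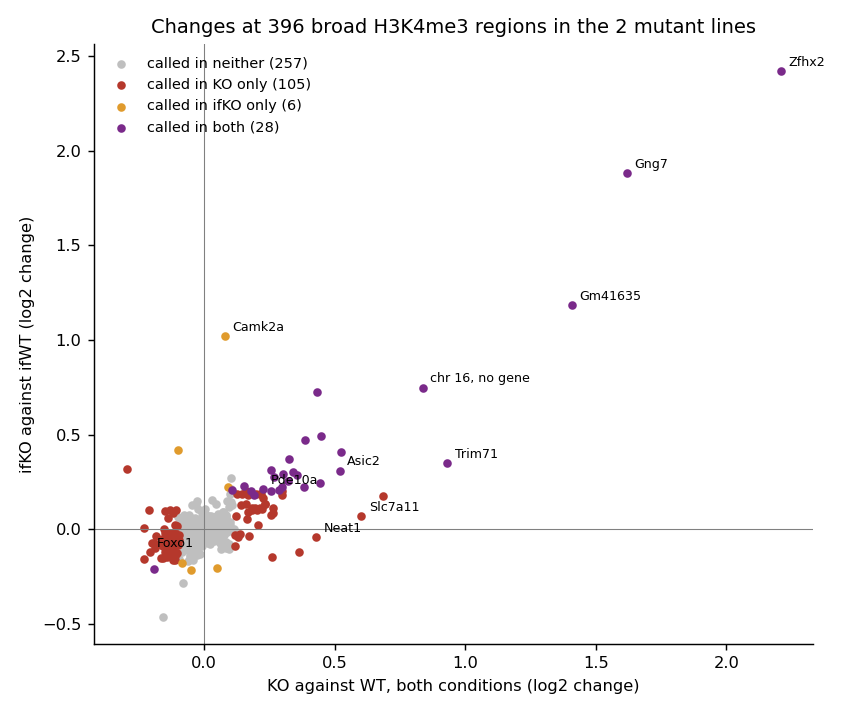
Log2 change of each of the 396 broad regions in KO against WT averaged over both conditions (horizontal axis) and in ifKO against ifWT (vertical axis), coloured by the calls. Of the regions, 28 are called in both lines (purple), with Zfhx2, Gng7 and Gm41635 at the upper right, and Camk2a lies apart with a call in ifKO only.

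Camk2a, the kinase gene of excitatory synapses, differed between the lines. Its broad region (chr18:60925613-60929614) had 140.1 and 124 CPM in ifWT and 272 and 263 CPM in ifKO, a log2 change of 1.02 ± 0.064 (SE, adjusted p 3.2e-13). In the KO cohort it had 142 to 166 CPM in the 4 WT and 154 to 169.8 CPM in the 4 KO libraries, which overlapped, and the change was 0.081 ± 0.045 (adjusted p 0.17). Regions within 100 kb of it rose in ifKO as well. Arsi, a sulfatase gene, had 10.2 and 8.26 CPM in ifWT and 41.3 and 34.98 CPM in ifKO, and a region at Gm46632 had 1.32 and 1.83 CPM and 16.1 and 16.2 CPM. Slc6a7, a proline transporter gene, changed by 0.54 and Tcof1, on the other side, by -0.092 (adjusted p 0.54). Several of these neighbours also rose in KO against WT averaged over both conditions, among them Gm41744 (0.97, adjusted p 2.4e-08, against 1.35 in ifKO), Arsi (0.63, 1.4e-05, against 2.05) and Slc6a7 (0.27, 2.4e-05). The 2 narrower regions inside Camk2a rose there by 0.86 and 0.75 (adjusted p 2.5e-06 and 2.7e-06), and Gm46632 had 0.043 (0.89). Whether the ifKO line carries further copies of this segment was not tested.

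In the test of the difference itself, the change in KO minus that in ifKO, both under standard conditions, 3 broad regions were called (0.758%), against 0.701% of all tested regions (0.651% higher and 0.0501% lower). Camk2a was lower in this difference (-0.99 ± 0.090, adjusted p 4.1e-08). Trim71 was higher (0.72 ± 0.11, adjusted p 0.00023). It had 69.2 and 60.3 CPM in ifWT and 89.3 and 75.02 CPM in ifKO, so that the ifWT libraries were above the 4 WT libraries of the KO cohort. Neat1 was higher too (0.38 ± 0.093, adjusted p 0.047), with 60.4 and 66.2 CPM in ifWT and 63.2 and 59.7 CPM in ifKO. The Neat1 call was lost without WT standard library 1 (adjusted p 0.13) or 2 (0.25), KO standard library 1 (0.21), WT novelty library 1 (0.061) or 2 (0.061), ifWT library 2 (0.29) or ifKO library 2 (0.13). It was also lost with DESeq2 (0.12), limma-voom (0.15), RLE size factors (0.067), the compared groups alone (0.072) and the replicate block (0.061). The count of 3 became 5 without KO standard library 2, ifWT library 1 or ifKO library 2, and 6 without ifKO library 1.

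Novelty gave a called change at 1 broad region, Pde10a, a cyclic nucleotide phosphodiesterase gene abundant in striatum (chr17:8524069-8527904). It had 71.6 and 76.4 CPM in WT under standard conditions and 96.6 and 95.1 CPM after novelty, and 93.5 and 82.1 CPM and 108 and 113 CPM in KO. In both genotypes the novelty libraries were above the standard ones. Averaged over the genotypes the log2 change was 0.35 ± 0.041 (adjusted p 3.7e-05), and 1 of 396 regions was called, against 0.0473% of all tested regions (0.0445% higher and 0.00278% lower). An unadjusted edgeR p under 0.05 was reached by 72 of 396 broad, 866 of 14426 mid-width and 2134 of 35955 tested regions. In WT these counts were 62, 680 and 1679, and the difference between the width classes was not tested. In WT Pde10a changed by 0.37 ± 0.060 (adjusted p 0.011), the only broad region called there, against 0.00556% of all tested regions. In WT it lost the call without WT standard library 1 (adjusted p 1), WT novelty library 1 (0.16) or 2 (0.44). In KO edgeR called no region (0% of all tested regions), with 19 of 396 broad and 1416 of 35955 tested regions at an unadjusted p under 0.05. Pde10a changed there by 0.33 ± 0.058 (adjusted p 0.079). It was called there with DESeq2 (adjusted p 0.017), limma-voom (0.032), library totals (0.032) or strength offsets (0.022), and without KO standard library 1 (0.0056), ifKO library 1 (0.034) or ifKO library 2 (0.033). Pde10a was also higher in KO than in WT (0.23, adjusted p 9.3e-05) and in ifKO than in ifWT (0.21, 0.038). Pde10a is a marker of striatal neurons. Gene ends of the striatal, thalamic and hindbrain markers, a mixed list, had a median of 16.1 and 15.8 CPM in WT before and after novelty and 15.6 CPM in KO in both conditions. The part of striatal tissue in the Pde10a change was not tested.

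The other regions with the smallest p for novelty did not pass the threshold. Over both genotypes 9430053O09Rik had a log2 change of -0.21 (adjusted p 0.18) and Zic2, a zinc finger gene of early development, -0.16 (0.23). With the 8 libraries of the KO cohort fitted alone, 4 broad regions were called over both genotypes and 6 in WT, among them 9430053O09Rik (adjusted p 0.015 over both genotypes and 0.0072 in WT) and, in WT, Neat1 (0.018). The call of 9430053O09Rik over both genotypes was also gained without KO standard library 2 (0.022), ifKO library 1 (0.043) or ifKO library 2 (0.044), and the count was then 3, 2 and 2. In KO, Jag1, a Notch ligand gene, had -0.19. Among broad regions the median change with novelty was -0.024, and -0.0055 among mid-width regions. The activity-induced genes with a broad gene-end region were not called: Arc had 94.8 and 96.8 CPM in WT under standard conditions and 93.4 and 96.2 CPM after novelty. For Dusp4 the values were 139 and 141 CPM and 140.1 and 151 CPM, and for Dusp6 185 and 182 CPM and 182 and 191 CPM. The interaction of genotype and novelty gave no call by edgeR (0% of all tested regions called). At an unadjusted p under 0.05 there were 15 of 396 broad and 1055 of 35955 tested regions. The smallest p were at Gpm6a (0.27), a neuronal membrane protein gene, Trim71 (-0.27) and Kcnip3 (0.21), which encodes a calcium-binding channel and transcription regulator.

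The gene lists held at most 11 broad regions each, too few to compare their shares of calls in KO against WT averaged over both conditions. Among all broad regions 16.2% rose and 17.4% fell, and among all tested regions 18.1% and 13.9%. Of the 11 broad regions at pyramidal and granule neuron genes 2 rose, at Fezf2 (0.26 ± 0.051, adjusted p 0.00018) and at one of the 2 regions inside Tcf4 (0.27 ± 0.045, 3.3e-05), and none fell. Their median was 0.022, and the 13 genes of this list whose strongest gene-end region was mid-width had 1 rise, 8 falls and a median of -0.13. Falls were common among mid-width regions of any gene. At gene ends 14.5% of them rose and 28.6% fell (median -0.069). With a mean log2 CPM of 6 to 7, 2.43% rose and 52.0% fell (median -0.11). At Tbr1, a cortical transcription factor gene, the 4 WT libraries had 110.4 to 131 CPM and the 4 KO libraries 110.3 to 122 CPM. At Nrgn they had 110.3 to 129 CPM and 121 to 137 CPM, and at Bhlhe22 126 to 148 CPM and 136 to 144 CPM, so that the groups overlapped at all 3. With strength offsets Camk2a (adjusted p 0.00051, and 0.021 with library totals), Nrgn (0.012) and Bhlhe22 (0.030) were called higher. None of the 7 regions at synaptic transmission genes was called, with Nlgn1, a neuroligin gene, at 0.062 ± 0.038, Gabra2, a GABA receptor subunit gene, at 0.065 ± 0.041 and the region at Grin2b, an NMDA receptor subunit gene, and Gm26653 at 0.030 ± 0.041. With library totals Nlgn1 (adjusted p 0.022), Gabra2 (0.028) and Lrrtm2 (0.021) were called higher, and with strength offsets these (0.00045, 0.0015 and 0.0011) and the Grin2b region (0.0074). The potassium channel genes Kcnj6 (-0.051), Kcnma1 (-0.079) and Kcnk1 (-0.0060) were not called. Without WT novelty library 1 both Kcnj6 (-0.11, adjusted p 0.0496) and Kcnma1 (-0.11, 0.0489) were called lower, and Kcnma1 was also called lower with DESeq2 (0.0497) and limma-voom (0.048). At activity-induced genes Arc rose (0.12 ± 0.038, adjusted p 0.017) and Dusp4, a phosphatase gene, fell (-0.12 ± 0.043, 0.03). The Arc call was lost with DESeq2 (0.062) and without WT standard library 1 (0.068), KO standard library 1 (0.072), WT novelty library 1 (0.053) or KO novelty library 2 (0.058). The Dusp4 call was lost with library totals (0.12) or strength offsets (-0.028, 0.61) and without any 1 library of the KO cohort except WT novelty library 1 and KO novelty library 2 (0.054 to 0.16).

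Among glial and vascular genes, Apoe, the gene of the main lipid carrier of astrocytes, had 63.3 and 59.8 CPM in WT and 67.9 and 69.8 CPM in KO under standard conditions, and 58.00 and 53.5 CPM and 71.3 and 71.1 CPM after novelty. It rose by 0.26 ± 0.044 (adjusted p 3e-05), whereas in ifKO it had -0.15 (adjusted p 0.25). The region at the glutamate transporter gene Slc1a2 and LOC115489466 had 0.10 (adjusted p 0.054), and was called with library totals (0.0051), limma-voom (0.025), the KO cohort fitted alone (0.023) or strength offsets (0.00035). It was also called without KO standard library 2 (0.026), KO novelty library 2 (0.043), either ifWT library (0.042) or either ifKO library (0.045). Fgfr3, a growth factor receptor gene, had -0.025 and the region at Sox8, an oligodendrocyte lineage factor gene, 0.044, called higher with library totals (adjusted p 0.048) or strength offsets (0.00061). Besides Fli1, the region at Cdc45 and Cldn5, a tight junction gene of endothelium, fell (-0.15 ± 0.055, adjusted p 0.034), a call lost without WT standard library 1 (0.058) or 2 (0.12), KO standard library 1 (0.22), WT novelty library 2 (0.15) or KO novelty library 1 (0.18), and with library totals (0.15) or strength offsets (0.062). The 12 endothelial and mural genes whose strongest gene-end region was mid-width had 0 rises, 5 falls and a median of -0.21. Among all mid-width regions at gene ends 14.5% rose and 28.6% fell, with a median of -0.069. The gene ends of all 23 had a median of 25.8 CPM in WT and 21.3 CPM in KO under standard conditions and 23.7 and 21.2 CPM after novelty, and the part of vascular cell content in these falls was not tested. Cck, a neuropeptide gene of interneurons and pyramidal cells, rose by 0.22 ± 0.041 (adjusted p 8.1e-05). Zic2 fell by 0.16 on the log2 scale (adjusted p 0.0034), a call lost without KO novelty library 1 (0.060) and with strength offsets (0.16). The region shared by Chd2, a chromatin remodelling gene, and the noncoding RNA gene Chaserr rose (0.12 ± 0.044, adjusted p 0.037). That call was lost with RLE size factors (0.078) or DESeq2 (0.096) and without any 1 library of the KO cohort except KO standard library 2 (0.064 to 0.42). Hcfc1 (-0.042) and Iqsec2 (-0.072), a synaptic exchange factor gene, were not called.

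The single libraries of Kdm5C and H3K4me1, 1 WT and 1 KO each on the C57BL/6J background, allow values with no replicate check. These files list 2321 short regions (median 354 bp) with summed coverage. Of the broad regions 44 (11.1%) overlapped one, as did 10.9% of mid-width regions and 6.43% of all regions. At a mean log2 CPM of 6 to 7 it was 14 of 177 broad regions (7.91%) and 827 of 3294 mid-width regions (25.1%). Above 7 the shares were closer, with 30 of 182 broad (16.5%) and 9 of 38 mid-width regions (23.7%). Over the 44, the median Kdm5C coverage per base was 4.59 in the WT and 0.926 in the KO library, and that of H3K4me1 was 0.513 and 0.277. The highest Kdm5C coverage per base in the WT library was at Abhd17b (7.39), a depalmitoylase gene, Arid2 (7.34), a chromatin remodelling gene, Ppp1r15b (7.29), a phosphatase regulator gene, and the histone genes H2ac20 and H2ac21 (6.97). Of these, Abhd17b (-0.16 ± 0.036, adjusted p 0.0011) and Ppp1r15b (-0.16 ± 0.035, 0.00091) fell in H3K4me3 in KO, both with strength offsets lost as calls (0.12 and 0.15), and Arid2 (-0.011) and the histone genes (0.054) were not called, although the histone genes were higher with library totals (0.045) or strength offsets (0.0024). Of the 64 broad regions that rose in KO 6 (9.38%) overlapped a listed Kdm5C region, of the 69 that fell 11 (15.9%) and of the rest 27 (10.3%). Over all regions 344 of 6519 rises and 637 of 5009 falls overlapped one, so falls overlapped more often than rises there too. Zfhx2, Gng7 and Gm41635 overlapped none, like most broad regions.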

How the data were processed

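H3K4me3 files hold raw counts, 1 whole number per region and library, without normalization, per the file headers, and the deposited list of 36005 regions is the same in all 12 libraries (9 repeated rows were dropped, 1 of them broad). The Kdm5C and H3K4me1 files hold signal, which the authors' headers call raw counts but whose sizes are those of base coverage summed along each of 2321 regions; they were divided by width, and the library totals behind them are unknown. The submitters' processing notes list MACS2 2.1.0, featureCounts, DESeq2 1.10.0, Bowtie2 2.2.9, R 3.3 and SAMtools 1.3.1, with mm10 as the build. No input libraries were used here.

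All 12 H3K4me3 libraries were fitted in edgeR 4.0.16 (R 4.3.3) with a mean per group, TMM scaling, filterByExpr (35955 regions left, all 396 broad ones among them), quasi-likelihood F tests, with p adjusted over all widths by Benjamini-Hochberg and called under 0.05. Standard errors were derived from the F statistic. With 2 libraries against 2, no permutation of 1 region can reach 0.05, and the tests rest on a spread pooled over groups. On simulated counts for the KO against WT comparison averaged over both conditions (35893 regions), 83% of 100 regions changed by 1 on the log2 scale and 68% of 100 changed by 0.5 were recovered. The changed regions were drawn from all widths and were far fewer than the calls in the data, so these shares do not describe broad regions. CPM use TMM-scaled library sizes. A floor of 3 counts corresponds to 0.0986 to 0.165 CPM, and covers counting error only.

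Genes came from a RefSeq table (GRCm38.p6, 49939 genes) without strand, by gene ends within 2 kb, otherwise the gene around the region, otherwise the nearest gene within 50 kb. Start sites and sequences came from a RefSeq promoter table of the same build, which does not hold every gene; coordinates of regions are those of the deposited files. Some results are not reported here. The members, the 16 gene lists and the comparisons were chosen with earlier results of these data known. The text names the 8 widest regions, those beside the threshold, the 6 largest rises and falls in KO against WT averaged over both conditions with an assigned gene and no overlap of libraries, the 3 largest in each other comparison (or the 3 smallest p), the 4 densest and sparsest, up to 4 per list and the 4 with the most Kdm5C. The chromosome 16 region, Lefty1, Asic2, Neat1 in the KO comparison, Frmd4a, AY036118, Mtcl1 and the regions near Camk2a were added after their values were seen. Alternatives were DESeq2 1.42.0, limma-voom (limma 3.58.1), other scalings, filters, fits and widths, a replicate block and leaving out each library.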

Additional observations from a re-analysis of the deposited data

Results flagged for a closer look

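A test of the difference between the 2 mutant lines, the change in KO minus that in ifKO, both under standard conditions, picked out 3 broad regions. At Camk2a the difference was -0.99 on the log2 scale, with a call in ifKO and none in KO. At Trim71 it was 0.72 and at Neat1 0.38, where the KO effect was the higher one. The lines also differ in background and cohort, which cannot be told apart from the mutation here.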

How the results depend on the processing

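With offsets fitted to region strength, 140 broad regions were called in KO against WT after novelty, 59 in ifKO and 1 for novelty in KO. The median change of broad minus that of mid-width regions, 0.017 in KO averaged over both conditions, 0.00036 under standard conditions, 0.034 after novelty and 0.027 in ifKO, became 0.090, 0.066, 0.11 and 0.077. Kcnk1 (0.087, adjusted p 0.048) and Arid2 (0.089, 0.042) then turned from lower to higher in KO. The medians were close to these, at 0.086, 0.066, 0.10 and 0.070, when only regions with a mean log2 CPM above 6 were compared. Library totals, DESeq2 and limma-voom also gave 1 call for novelty in KO, and the compared groups fitted alone 4 calls for novelty over both genotypes and 6 in WT.

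With a minimum width of 2500 bp the calls were 496 (KO averaged), 200 (standard), 268 (after novelty), 87 (ifKO), 3 (novelty over both genotypes) and 13 (KO effect minus ifKO effect). With 4000 bp they were 6, 4, 4, 2, 0 and 1, and 0 for novelty in WT, and the median difference was -0.070 for novelty in WT and -0.069 for the KO effect minus the ifKO effect. Fewer or more members change these counts by construction.

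Without 1 library at a time the calls ranged from 100 to 146 in KO averaged over both conditions, 26 to 69 under standard conditions, 46 to 92 after novelty, 10 to 46 in ifKO, 1 to 3 for novelty over both genotypes, 0 to 1 in WT, 0 to 1 in KO and 2 to 6 for the KO effect minus the ifKO effect. A lone library left in a group is then assumed to vary like the other groups. Same-numbered libraries did not deviate together between groups (15 pairs, correlations -0.21 to 0.18, 4 of them over 0.1), so the numbers were not taken to pair the libraries. With a replicate block the calls were 130, 59, 72 and 31 in the 4 mutant comparisons.

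Of 3720 values for single regions under an alternative, 3547 kept their direction and their side of the threshold, 110 lost the call, 61 gained one and 2 turned. The causes of these changes were not tested. Depth left every broad region well above the floor, and the number of libraries, 2 a group, limits the precision.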

Other observations

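Of the 396 broad regions, 36 (9.09%) lay at gene ends with no protein-coding gene among them. Ank3, Celf2, Synpo, Tcf4 and Tenm2 had 2 broad regions each. Ank3 encodes an ankyrin of the axon initial segment, Celf2 an RNA-binding protein, Synpo an actin-associated protein of dendritic spines and Tenm2 a teneurin.

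The region at Gm41635 and that inside Gng7, 2 of the 3 that rose most in both lines, ranked low in level among broad regions, with 20.3 and 26.1 CPM on average. Sstr4, a somatostatin receptor gene, and Phactr1, which encodes an actin and phosphatase regulator, also rose in both lines. Sstr4 had 0.30 in KO and 0.22 in ifKO (adjusted p 4.5e-07 and 0.017), and Phactr1 0.44 and 0.24 (7.1e-10 and 0.017). These genes were chosen after their values were seen.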
